A study of Mus musculus with 9 samples.

Results

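The immediate early genes examined here were Fos, Fosb, Jun, Junb, Jund, Egr1, Atf3, Ier2, Zfp36 and Klf6, 10 of the 32427 genes in the count tables. They were chosen by name, and all 10 had counts in every mouse. Kidneys of 9 male C57BL/6 mice had been profiled by droplet single-cell RNA sequencing, with 3 mice in each of 3 groups. The mice were 6 weeks old at the start and had 1 week of adaptation. Control mice received saline. AKI-CKD mice received 4 weekly intraperitoneal injections of cisplatin at 8 mg/kg, a model of acute kidney injury that passes into chronic kidney disease. AKI-CKD + EGT mice received the same cisplatin and ergothioneine (EGT), a dietary thiol antioxidant, at 0.5 mg/mL in the drinking water, begun before the first injection and kept up to the end. Kidneys were taken after 8 weeks. Each library is one mouse, so the replicates are mice.

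Immediate early genes are transcribed within minutes of a stimulus without new protein synthesis. Fos, Fosb, Jun, Junb and Jund encode subunits of the AP-1 transcription factor, Egr1 and Klf6 encode zinc finger factors, Atf3 encodes a stress-responsive repressor and activator of the same leucine zipper class, Ier2 encodes a nuclear regulator, and Zfp36 encodes tristetraprolin, which binds and destabilises AU-rich mRNAs. In the kidney they respond to ischaemic and toxic injury. They are also widely known to rise while a tissue is cut, warmed and digested into single cells, so they bear on the question of whether the cell suspensions of the 3 groups had been in a comparable state. How the kidneys were dissociated, and in which order the mice were processed, is not given in the sources used here, so differences between mice and differences in the handling of each kidney cannot be told apart in the values below.

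The proximal promoters of 8 of the 10 genes (all but Egr1 and Ier2) were found in the RefSeq table of build GRCm38.p6. The letters searched on both strands were the CArG box bound by serum response factor, the cyclic AMP response element TGACGTCA, the AP-1 element TGACTCA and the TATA box TATAAA, over 250 bases before and 50 after the annotated start. A CArG box was present in 1 of 8 genes (Zfp36), against 1.63% of 32851 promoters. TATAAA was present in 2 of 8 (Fos and Junb), against 13.6%. TGACGTCA and TGACTCA were present in 0 of 8, against 1.79% and 5.2%. Only exact matches within this window were counted. Sites farther upstream or with other letters were not searched, so these counts do not show that a gene lacks such a site. No match overlapped another. The 250 bases before the start are shown for the gene with a TATA box whose level is followed below in each cell type (Fos), for the gene with the CArG box (Zfp36) and for the gene that varied most between mice (Atf3). Capitals mark the match, which lay at -33 to -28 in Fos and at -58 to -49 in Zfp36, counted back from the annotated start. The stretches are chr12:85473640-85473889 on the + strand, chr7:28379229-28379478 on the - strand and chr1:191183334-191183583 on the - strand.
Fos: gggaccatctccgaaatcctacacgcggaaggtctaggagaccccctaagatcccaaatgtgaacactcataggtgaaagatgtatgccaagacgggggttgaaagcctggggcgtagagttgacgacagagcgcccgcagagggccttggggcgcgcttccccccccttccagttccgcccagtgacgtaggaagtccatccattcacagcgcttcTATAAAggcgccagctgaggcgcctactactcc
Zfp36: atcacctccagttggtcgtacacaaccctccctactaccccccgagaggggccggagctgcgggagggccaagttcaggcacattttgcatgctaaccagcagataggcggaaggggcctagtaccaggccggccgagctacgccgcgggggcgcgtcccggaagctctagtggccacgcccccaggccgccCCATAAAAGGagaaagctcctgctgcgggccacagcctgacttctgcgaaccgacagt
Atf3: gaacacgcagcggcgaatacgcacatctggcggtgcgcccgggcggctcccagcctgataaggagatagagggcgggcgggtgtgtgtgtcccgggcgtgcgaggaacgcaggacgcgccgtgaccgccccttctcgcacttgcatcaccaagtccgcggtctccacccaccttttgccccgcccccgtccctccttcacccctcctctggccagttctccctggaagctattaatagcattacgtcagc

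After filtering, 196925 of 216680 barcodes were kept, with 17196 to 27463 cells per mouse and 64225484 to 97584966 UMIs per mouse (a UMI is one captured RNA molecule). Cell classes were rebuilt by clustering without the 10 genes and named from marker lists. Proximal tubule-like (PT-like) cells made up 151312 cells, DCT-like cells 12800, LOH-like cells 5847, endothelial-like cells 3585 and macrophage-like cells 2028. Of the DCT-like cells, 4886 lay in a cluster led by Klk1, S100g, Clu and Calb1, without Slc12a3 or Pvalb among its 10 leading genes. Whether that cluster belongs to another tubule segment was not tested. The macrophage-like class held only 57 cells of mouse AKI-CKD 1. Another 12237 cells stayed unnamed and enter only the sums over all kept cells. RNA of a PT marker was also found in the other classes. The PT marker Slc34a1 reached 32.4% to 59.5% of its PT-like level in DCT-like cells, 32.2% to 60.1% in endothelial-like cells and 56.7% to 77.8% in macrophage-like cells. Of these classes 11.5%, 13.6% and 11.4% of cells were among the highest doublet scores, against 5.29% of PT-like cells, and 56.4%, 44.7% and 64.1% of cells received the same name by marker score, against 95.1%. In LOH-like cells these shares were 11.9% and 70%. The 12 PT markers summed to 83268 to 95765 counts per 1000000 UMIs there in Control mice, against 64566 to 73344 in DCT-like cells. Free RNA, doublets and misassigned cells cannot be told apart as the source of this PT RNA. Levels below are counts per 1000000 UMIs (CPM), the UMIs of a gene scaled to the UMIs summed over the cells of one class in one mouse.

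In PT-like cells 9 of the 10 genes, all but Jund, differed widely between mice of one group. The ranges of the 3 groups overlapped for every one of the 10 genes. Fos measured 292.5, 229 and 74.6 CPM in the 3 Control mice, 81.1, 370 and 243 CPM in the AKI-CKD mice, and 137, 219 and 341 CPM in the AKI-CKD + EGT mice. Its highest and lowest mice, AKI-CKD 2 and Control 3, lay 4.96-fold apart, and the lowest mice of the other groups were AKI-CKD 1 and AKI-CKD + EGT 1.

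**Figure D1:**
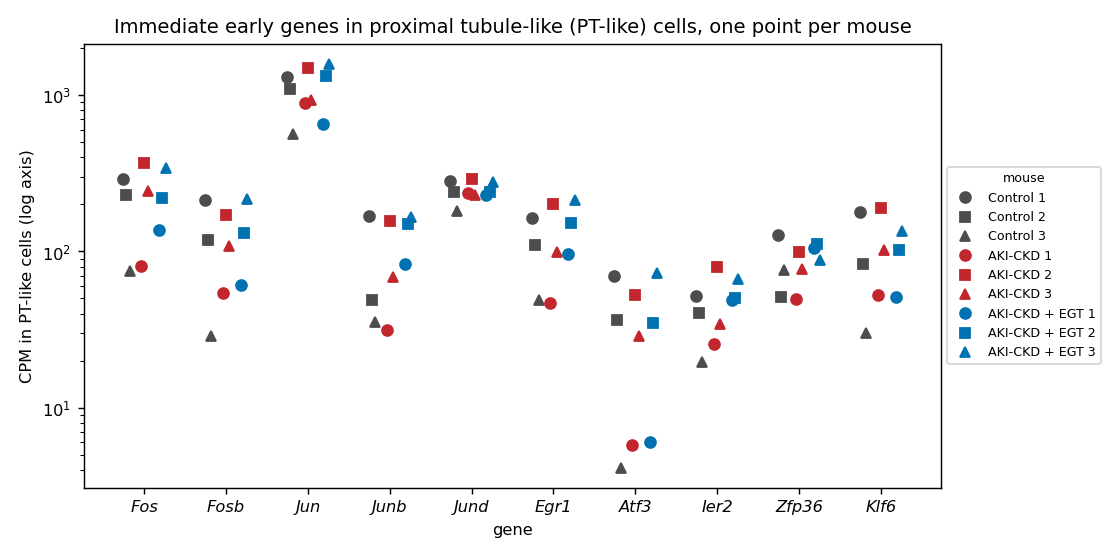
Level of each immediate early gene in PT-like cells (CPM, log axis), one point per mouse, with the group given by colour and the mouse number by symbol. For Atf3, Control 3, AKI-CKD 1 and AKI-CKD + EGT 1 sit between 4.14 and 6.08 CPM and the other mice between 28.8 and 72.3 CPM, so that each group spans the gap.

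Of the other AP-1 subunit genes, Fosb, Jun and Junb also differed widely between mice of one group. Fosb measured 213, 118 and 28.8 CPM in Control mice, 54.1, 172 and 109 CPM in AKI-CKD, and 61, 132 and 216 CPM in AKI-CKD + EGT. Jun, which encodes the central AP-1 partner, measured 1302, 1102 and 564 CPM in Control mice, 892, 1487 and 933 CPM in AKI-CKD, and 652, 1319 and 1579.8 CPM in AKI-CKD + EGT. Control 3 was the lowest mouse for both genes, and AKI-CKD + EGT 3 was the highest. Junb measured 169.5, 48.6 and 35.6 CPM in Control mice, 31.3, 157 and 68.1 CPM in AKI-CKD, and 82.6, 149 and 165 CPM in AKI-CKD + EGT. Jund, the member that is often transcribed in resting cells, measured 282, 241 and 181 CPM in Control mice, 236, 291 and 229.9 CPM in AKI-CKD, and 229.8, 240.3 and 278 CPM in AKI-CKD + EGT. Its mice lay only 1.6-fold apart, the narrowest range of the 10 genes.

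Among the zinc finger and stress genes the highest and lowest mice lay from 2.56-fold (Zfp36) to 17.5-fold (Atf3) apart. Egr1 measured 163, 109.8 and 48.7 CPM in Control mice, 47, 201 and 99.2 CPM in AKI-CKD, and 96.5, 153 and 215 CPM in AKI-CKD + EGT. Atf3 measured 69.6, 36.3 and 4.14 CPM in Control mice, 5.77, 52.6 and 28.8 CPM in AKI-CKD, and 6.08, 34.8 and 72.3 CPM in AKI-CKD + EGT. Its lowest value still rested on 311 UMIs, and Control 3, AKI-CKD 1 and AKI-CKD + EGT 1 were again the lowest of their groups. Klf6 measured 178, 83.6 and 30 CPM in Control mice, 52.3, 189.6 and 102 CPM in AKI-CKD, and 51.1, 102.4 and 135 CPM in AKI-CKD + EGT. Ier2 measured 52.1, 40.6 and 19.7 CPM in Control mice, 25.4, 80 and 34.2 CPM in AKI-CKD, and 48.6, 50.7 and 66.8 CPM in AKI-CKD + EGT. Zfp36 was ordered differently, at 128, 51.2 and 76.3 CPM in Control mice, 49.8, 98.8 and 76.7 CPM in AKI-CKD, and 105, 111 and 87.6 CPM in AKI-CKD + EGT, with Control 2 rather than Control 3 as the lowest Control mouse.

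Set against other genes, this spread was unusual. The SD between mice of one group, on the log2 CPM scale and pooled over the 3 groups, was 1.84 for Atf3, 1.07 for Fosb, 0.97 for Junb and Klf6, 0.94 for Fos and 0.83 for Egr1. Over the 7414 genes with a mean of at least 10 CPM in PT-like cells the median was 0.18. Of the 10 genes, 9 lay above the 95th percentile of those genes, and Jund, with an SD of 0.19, lay at percentile 54.3. For the SD of the 3 group means the median percentile of the members was 63.0, and 1 of the 10 genes (Junb) lay above the 95th percentile. The percentiles ran from 4.0 (Atf3) to 97.9 (Junb), with Ier2 at 91.6, Egr1 at 90.4 and Klf6 at 90.2. A mean of 3 mice also carries the spread between mice, so these percentiles do not isolate a difference between groups.

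**Figure D2:**
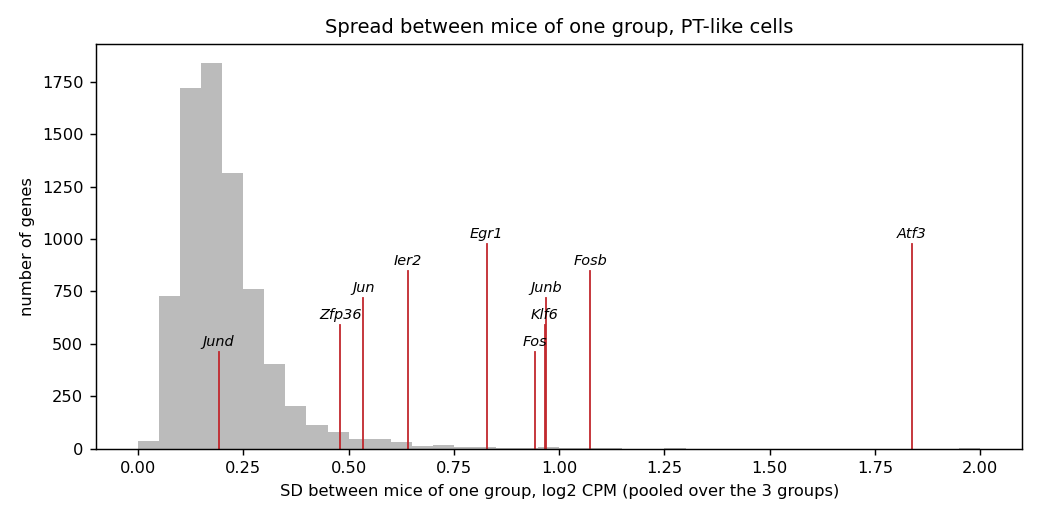
Distribution of the SD between mice of one group (log2 CPM, pooled over the 3 groups) over 7414 genes in PT-like cells (grey bars, number of genes), with the 10 immediate early genes as red lines. Jund lies at 0.19 inside the bulk of genes, and the other members lie to its right, up to 1.84 for Atf3.

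The first comparison asked whether the genes differed between cisplatin-injured and Control kidneys at the end of the 8 weeks. In PT-like cells 0 of the 10 genes passed edgeR's quasi-likelihood test at an adjusted p under 0.05, against 0.0445% of the 17976 genes tested. At an unadjusted p under 0.05 the members' count was also 0, against 11.4% of genes tested, and DESeq2 called 0 of the 10 and 195 genes in all. The log2 fold changes, AKI-CKD against Control, were 0.33 ± 0.54 (SE) for Fos, 0.02 ± 0.61 for Fosb, 0.25 ± 0.34 for Jun, 0.15 ± 0.60 for Junb and 0.19 ± 0.16 for Jund. They were 0.22 ± 0.49 for Egr1, -0.21 ± 0.96 for Atf3, 0.41 ± 0.40 for Ier2, -0.06 ± 0.30 for Zfp36 and 0.36 ± 0.57 for Klf6. The smallest adjusted p of the 10, by edgeR, was 0.63 for Jund. The median of the members was 0.21 and that of the genes tested -0.01. Without AKI-CKD 2 the members' median was -0.25 and without Control 3 it was -0.08, while without Control 1 it was 0.60 and without AKI-CKD 1 it was 0.48, so its sign rested on single mice. Groups that did not overlap were seen for 0 of 10 members, against 19.3% of genes tested.

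The second comparison asked whether EGT changed the genes in cisplatin-treated kidneys. It shares the AKI-CKD mice with the first, so the 2 sets of values are not independent. In PT-like cells 0 of 10 genes passed the test, against 0.0% of 17976 genes, and 0 had an unadjusted p under 0.05, against 15.1%. DESeq2 called 0 of the 10 and 450 genes in all. The log2 fold changes, AKI-CKD + EGT against AKI-CKD, were -0.26 ± 0.54 for Fos, 0.02 ± 0.61 for Fosb, -0.14 ± 0.34 for Jun, 0.40 ± 0.60 for Junb and -0.24 ± 0.16 for Jund. They were 0.17 ± 0.49 for Egr1, 0.08 ± 0.96 for Atf3, 0.03 ± 0.40 for Ier2, 0.22 ± 0.31 for Zfp36 and -0.50 ± 0.57 for Klf6. The median was 0.02 against -0.01 over the genes tested. It was 0.45 without AKI-CKD 2, -0.30 without AKI-CKD 1, -0.05 without AKI-CKD 3, 0.13 without AKI-CKD + EGT 1 and -0.27 without AKI-CKD + EGT 3. Groups that did not overlap were seen for 0 of 10 members, against 24.2% of genes tested. With standard errors between 0.16 and 0.96, these counts of 0 do not show that the groups had equal levels. The p-values here set the difference of group means against the spread between mice of a group.

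**Figure D3:**
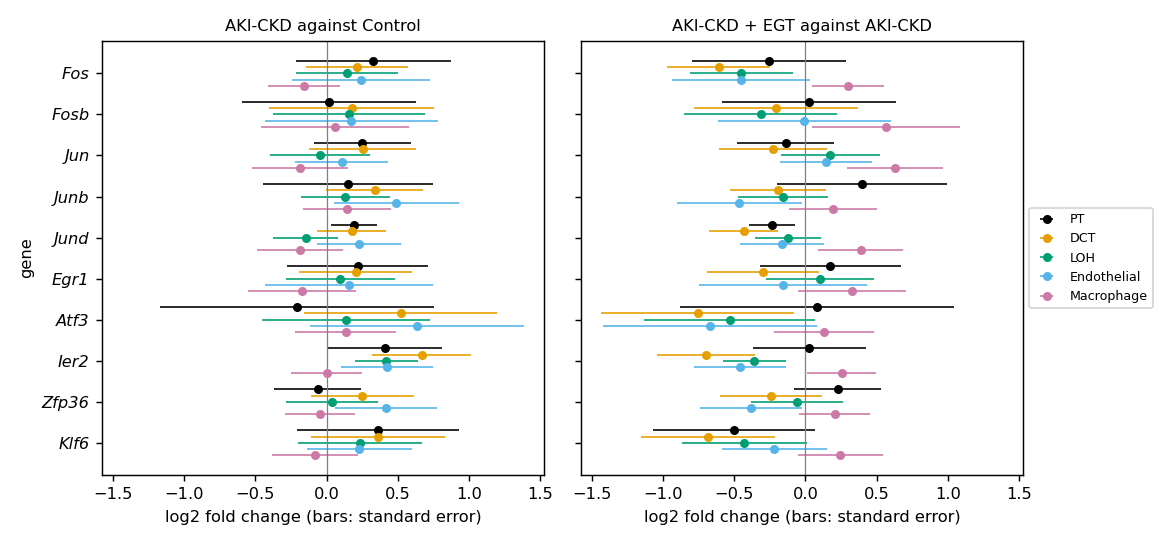
Log2 fold change of each gene in 5 cell classes for both comparisons, with bars of 1 standard error derived from edgeR's F statistic. The PT-like values lie between -0.21 and 0.41 for AKI-CKD against Control and between -0.50 and 0.40 for AKI-CKD + EGT against AKI-CKD, and no gene passed the test in any class shown.

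Outside the proximal tubule the tests also called no member. In DCT-like cells 0 of 10 passed for AKI-CKD against Control, against 0.0% of 12163 genes, with all 10 fold changes above 0 and a median of 0.25 on the log2 scale. For AKI-CKD + EGT against AKI-CKD 0 of 10 passed, again against 0.0%, with all 10 below 0 and a median of -0.36. Over all genes tested the medians were -0.0027 and -0.0. The 10 genes were measured in the same mice, so their signs, here and in the other classes, are not separate observations. Without AKI-CKD 2 the members' medians were -0.08 and -0.03, and without AKI-CKD 1 they were 0.55 and -0.58. The first was also 0.59 without Control 2 and 0.025 without Control 3, and the second -0.16 without AKI-CKD + EGT 1 and -0.57 without AKI-CKD + EGT 2. When genes were tested without the filter on low counts, edgeR called Ier2 in the first comparison, against 1.1% of 25655 genes, and Atf3, Ier2 and Klf6 in the second, against 2.25%. The largest values there were those of Atf3 and Ier2. Ier2 measured 109.5, 251 and 101 CPM in Control mice, 170.3, 339.6 and 187 CPM in AKI-CKD, and 132, 201 and 139 CPM in AKI-CKD + EGT, so AKI-CKD 2 alone exceeded every other mouse and the groups overlapped. Its log2 fold changes were 0.67 ± 0.35 (edgeR adjusted p = 0.54) and -0.70 ± 0.35 (adjusted p = 0.39). Atf3 measured 204.5, 395.5 and 49.3 CPM in Control mice, 99.7, 463 and 329 CPM in AKI-CKD, and 59, 263 and 258 CPM in AKI-CKD + EGT, with log2 fold changes of 0.52 ± 0.68 and -0.76 ± 0.68.

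In LOH-like cells 0 of 10 members passed in AKI-CKD against Control, against 0.0% of 9879 genes, and the largest values were 0.42 ± 0.22 for Ier2 and 0.23 ± 0.43 for Klf6. With EGT 0 of 10 passed, against 0.0709%, and the largest values were -0.53 ± 0.60 for Atf3 and -0.45 ± 0.36 for Fos. In endothelial-like cells 0 of 10 passed in AKI-CKD against Control, against 0.0% of 10326 genes, and with EGT 0 of 10 passed, against 0.00968%. Endothelial Junb measured 1032, 1529.7 and 477 CPM in Control mice, 605, 2012 and 1578.5 CPM in AKI-CKD, and 612, 1321 and 1285 CPM in AKI-CKD + EGT. The lowest mice were again Control 3, AKI-CKD 1 and AKI-CKD + EGT 1. The log2 fold changes of Junb were 0.49 ± 0.44 and -0.46 ± 0.44, and those of Atf3 0.63 ± 0.75 and -0.67 ± 0.75, the latter called when the filter on low counts was left out, against 0.968% of 23040 genes. In AKI-CKD against Control 8 of 10 fold changes were above 0 in LOH-like cells (median 0.13) and all 10 in endothelial-like cells (median 0.24). These medians were -0.26 and -0.04 without Control 3, and -0.13 and -0.04 without AKI-CKD 2. They were 0.48 and 0.65 without Control 2, and 0.41 and 0.63 without AKI-CKD 1. With EGT 2 of 10 were above 0 in LOH-like cells (median -0.24) and 1 of 10 in endothelial-like cells (median -0.30), and without AKI-CKD 2 the medians were 0.03 and -0.05. The medians with EGT were -0.47 and -0.68 without AKI-CKD 1, and -0.0035 and -0.14 without AKI-CKD + EGT 1. Over all genes tested the medians were -0.0073 and -0.0038 in AKI-CKD against Control, and 0.0204 and 0.0179 with EGT.

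Macrophage-like cells stood out less from other genes in spread, with 1 of 10 members above the 95th percentile of the SD within groups, against 9 in PT-like and DCT-like cells. The median SD over all genes compared was also higher there, at 0.41 against 0.18 in PT-like cells. Over the members the median SD was 0.53 and 0.89. In AKI-CKD against Control 0 of 10 members passed, against 0.0139% of 7202 genes, with 3 of 10 fold changes above 0 and the largest values at -0.19 ± 0.30 for Jund and -0.18 ± 0.34 for Jun. With EGT 0 of 10 passed, again against 0.0139%, with all 10 above 0 and a median of 0.28, against 0.035 over all genes tested. The largest values were 0.63 ± 0.34 for Jun (edgeR adjusted p = 0.63) and 0.56 ± 0.52 for Fosb. Macrophage Jun measured 2663.5, 1972 and 1103 CPM in Control mice, 1362, 2362 and 1244 CPM in AKI-CKD, and 1484, 3206 and 3346 CPM in AKI-CKD + EGT. With EGT the macrophage-like median thus lay above 0 and the DCT-like, LOH-like and endothelial-like medians below 0, a difference that was not tested, and the macrophage-like median was 0.05 without AKI-CKD 3, 0.12 without AKI-CKD 1, 0.18 without AKI-CKD + EGT 2 and 0.72 without AKI-CKD 2. Over all kept cells 0 of 10 members passed in AKI-CKD against Control, against 0.0199% of 20144 genes, and with EGT 0 of 10 passed, against 0.00496%. The largest values over all kept cells were 0.37 ± 0.36 for Ier2 and 0.30 ± 0.54 for Klf6 in the first comparison, and -0.39 ± 0.54 for Klf6 and 0.27 ± 0.51 for Junb in the second. In bulk sums of this kind, a change of cell makeup and a change per cell cannot be told apart.

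The mice that were low in PT-like cells were also low in most pairs of a gene and another class. Over the 12 other classes with at least 30 cells in every mouse there were 120 such pairs. Control 3 was the lowest Control mouse in 94 of them (78.3%), AKI-CKD 1 the lowest AKI-CKD mouse in 94, and AKI-CKD + EGT 1 the lowest of its group in 91 (75.8%). AKI-CKD 2 was the highest AKI-CKD mouse in 106 of the 120 pairs (88.3%). The pairs share the same mice, and PT RNA was found in other classes, so they are not separate observations. The same count over all genes was not made. In PT-like, DCT-like, LOH-like and endothelial-like cells together, Control 3 was the lowest Control mouse in each class for 8 genes, AKI-CKD 1 for 9 and AKI-CKD + EGT 1 for 8. A class led by Lyz2, S100a9, S100a8 and Il1b was ordered otherwise in Control and AKI-CKD + EGT. Its summed level of the 10 genes was highest in Control 3, at 10247 CPM, and lowest in Control 2, at 5172 CPM. In it AKI-CKD + EGT 1 was the highest of its group, at 8400 CPM, and AKI-CKD 1 still the lowest of its group, at 6333 CPM against 6412 and 6736 CPM. In B-like cells the summed level was highest in AKI-CKD + EGT 1, at 6359 CPM, and lowest in Control 1, at 3453 CPM. Fos was highest of its group in AKI-CKD + EGT 1 in macrophage-like cells (2068 CPM), T-like cells (856 CPM) and B-like cells (1494 CPM).

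**Figure D4:**
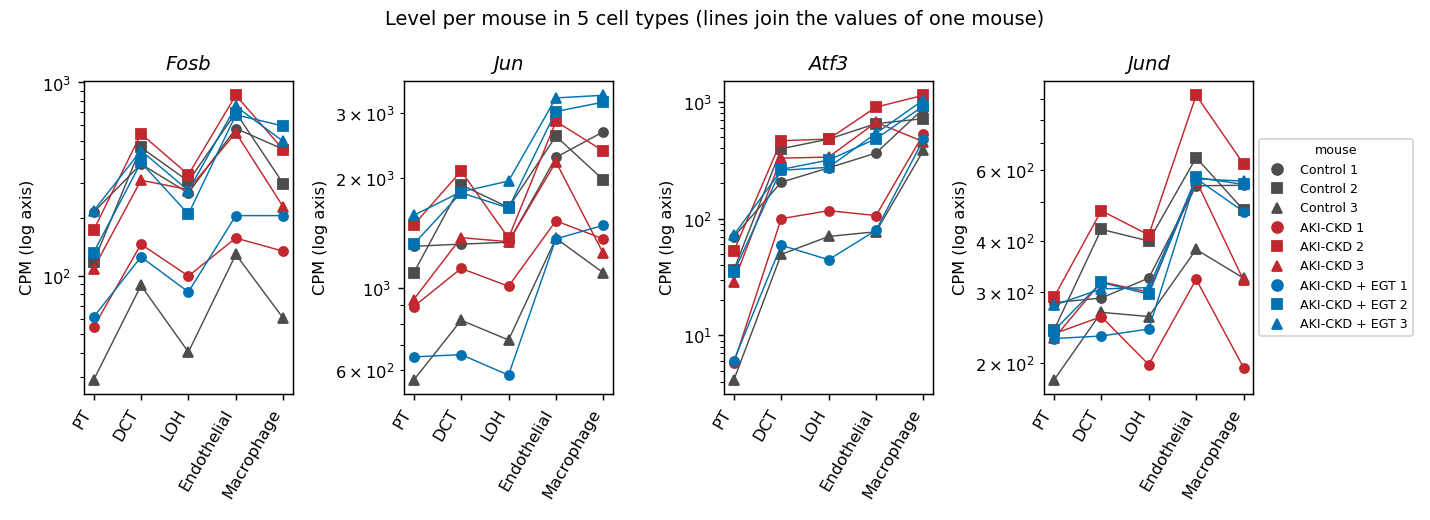
Levels (CPM, log axis) of Fosb, Jun, Atf3 and Jund in 5 cell classes, with lines joining the values of one mouse, colour for the group and symbol for the mouse number. The lines of Control 3, AKI-CKD 1 and AKI-CKD + EGT 1 run below the others for Fosb from PT-like to macrophage-like cells, with 28.8 to 61 CPM in PT-like cells and 60.2 to 204.5 CPM in macrophage-like cells, while for Jund the lines cross.

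Over the 9 mice, the level of a gene in PT-like cells was compared with its level in DCT-like, LOH-like, endothelial-like and macrophage-like cells, 40 relations in all, with exact permutation of the pairings (two-sided) and Benjamini-Hochberg adjustment over the 40. For Atf3 the mice fell into separate low and high ranges, so no pooled correlation is given for it. PT-like Fosb and Klf6 were also split. Control 3, AKI-CKD 1 and AKI-CKD + EGT 1 had 28.8 to 61 CPM of Fosb, against 109 to 216 CPM in the other mice. For Klf6 they had 30 to 52.3 CPM, against 83.6 to 190 CPM. Leaving out 2 mice kept AKI-CKD + EGT 1 in for Fosb and AKI-CKD 1 for Klf6. Whether r in these genes reflects more than the split was not tested. Of the other 36 relations, 19 had an adjusted p under 0.05 for Pearson's r and 13 for Spearman's rho. Klf6 had r of 0.78 to 0.92 and rho of 0.78 to 0.87 with the 4 classes, and after leaving out the 2 mice farthest from the median r was 0.81 to 0.84. Fosb had r of 0.92 to 0.94 (rho 0.62 to 0.90, and r 0.77 to 0.82 without the 2 mice). Jun had r of 0.88 to 0.93 (rho 0.82 to 0.95, and r 0.68 to 0.91 without the 2 mice).

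The remaining genes were less uniform. For Egr1 r was 0.71 to 0.89 (rho 0.68 to 0.85), with 3 of 4 relations passing. Junb had r of 0.50 to 0.88 (rho 0.33 to 0.78, and r 0.04 to 0.91 without the 2 mice) and Ier2 r of 0.43 to 0.80 (rho 0.33 to 0.72, and r -0.08 to 0.59 without the 2 mice), each with 1 of 4 passing. For Fos it was 0.88 with endothelial-like cells (rho 0.75, exact permutation p = 0.004459 and 0.02549) but 0.27 with macrophage-like cells (rho 0.40, exact permutation p = 0.5087 and 0.2912). Zfp36 and Jund passed in 0 of 4 relations each, with r of 0.21 to 0.63 (rho 0.17 to 0.72) and 0.47 to 0.62 (rho 0.47 to 0.80). Without the 2 farthest mice, 11 of the 36 relations still had an unadjusted exact p under 0.05, and they were all among the 19. The other 8 of the 19, among them both passing relations of Fos, no longer did over the 7 mice left, with r of 0.52 to 0.77. The mice left out were Control 3 with AKI-CKD 1 or AKI-CKD + EGT 1, and 7 mice also give a weaker test, so how far these relations rest on those mice was not tested. Within groups, as deviations from the group means, r was 0.26 to 0.98 over the 36 relations. PT RNA was found outside PT-like cells, as given above, and its part in these relations was not tested.

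Mitochondrial UMIs moved partly with these levels. They made up 5.88%, 3.89% and 1.54% of PT-like UMIs in Control, 3.05%, 2.56% and 1.91% in AKI-CKD, and 3.43%, 4.23% and 5.69% in AKI-CKD + EGT. In Control and in AKI-CKD + EGT the mouse with the lowest share was the one with the lowest Fos, while in AKI-CKD the mouse with the lowest Fos had the highest share. Over the 9 mice the correlation of the mitochondrial share with a member's PT-like level was 0.38 to 0.70 (Pearson's r, with rho of 0.38 to 0.73) for the 9 genes other than Atf3, and 0 of 30 relations with quality measures passed adjustment, counting also the ribosomal protein share and Malat1. Without the 2 mice farthest from the median mitochondrial share r was 0.06 to 0.45. Within groups, as deviations from the group means, it was 0.20 to 0.87. Barcodes over the mitochondrial limit, which were removed, made up 17%, 4.41% and 0.909% of barcodes in Control, 4.62%, 4.84% and 1.86% in AKI-CKD, and 5.21%, 7.94% and 27.7% in AKI-CKD + EGT. The share was lowest in Control 3 and highest in AKI-CKD + EGT 3, the lowest and the highest mouse for Fosb and Jun. The part of RNA quality, and of this removal, in the levels was not tested.

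Cell classes differed in level more than groups did. PT-like cells had the lowest or nearly the lowest level of most members, and myofibroblast-like cells had the highest median for 6 of them (Fos, Fosb, Jun, Junb, Egr1 and Ier2). Median Fos was 2956 CPM in myofibroblast-like cells, 1740 CPM in endothelial-like cells, 1737 CPM in macrophage-like cells, 1294 CPM in intercalated-like cells (CD-IC), 683 CPM in DCT-like cells and 229 CPM in PT-like cells. The endothelial-like and macrophage-like medians did not differ beyond their spread over mice, which ran from 656.5 to 2688 CPM and from 938 to 2208.5 CPM. In endothelial-like, intercalated-like, principal-like (CD-PC), thin limb-like and myofibroblast-like cells, each of the 10 genes was above the PT-like level of the same mouse in 9 of 9 mice.

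**Figure D5:**
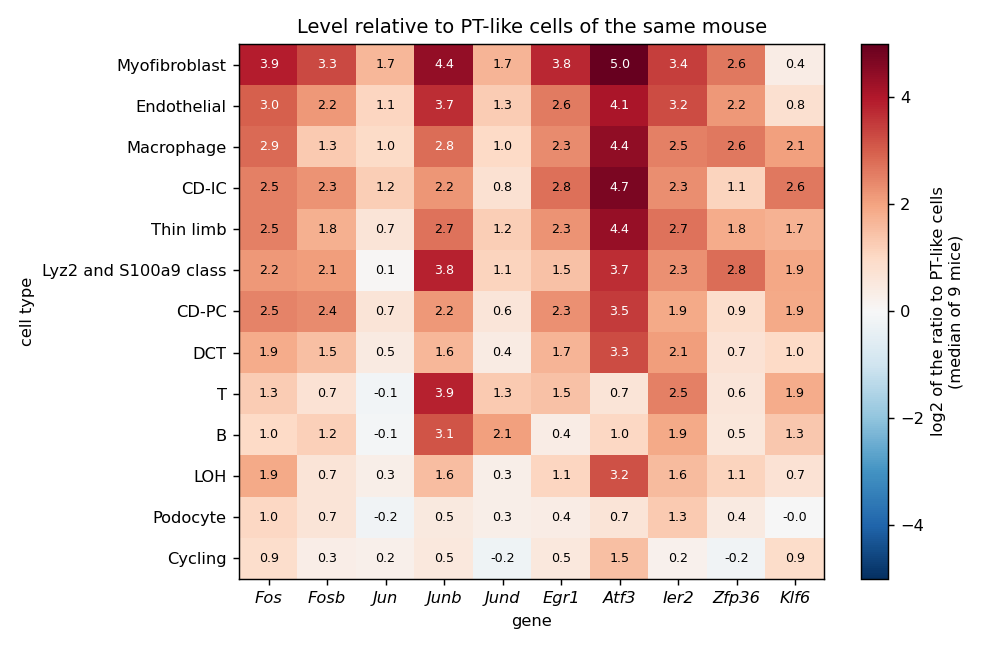
Log2 of the ratio of each gene's level in a cell class to its level in PT-like cells of the same mouse (median of 9 mice, CPM), with classes in rows and genes in columns. Atf3 shows the largest ratios, 4.97 in myofibroblast-like and 4.70 in intercalated-like cells, and Jun and Jund the narrowest range.

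The order of classes depended on the gene. Atf3 was highest in intercalated-like (739.9 CPM), thin limb-like (719.6 CPM), macrophage-like (715 CPM) and myofibroblast-like cells (713 CPM), against 34.8 CPM in PT-like cells, 39.2 CPM in T-like cells and 53.5 CPM in B-like cells. Junb reached 1371 CPM in T-like cells, close to the 1285 CPM of endothelial-like cells. Jund was highest in B-like cells, at 1006 CPM. Klf6 was highest in intercalated-like cells, at 635 CPM, and Zfp36 in macrophage-like cells, at 576 CPM, where tristetraprolin is known to restrain cytokine mRNAs. Podocyte-like cells, 16 to 197 per mouse, had median ratios to the PT-like level of the same mouse from 0.874 (Jun) to 2.49 (Ier2). In AKI-CKD 3 the 34 podocyte-like cells had a summed level of 12668 CPM, against 1408 to 3825 CPM in the other mice. In AKI-CKD 1, with only 16 such cells, Fos measured 465 CPM against 81.1 CPM in PT-like cells.

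The part of these levels that PT RNA from outside the class would carry was computed. If the Slc34a1 level of a class is taken as its share of PT RNA, that share would carry, in the mouse where it is largest, 10.8% of the Fos level in endothelial-like cells, 20.2% in macrophage-like cells and 29.7% in DCT-like cells. For Jund it would carry up to 81.1% of the macrophage-like level and 67.6% of the LOH-like level, and for Jun up to 58.4% and 60.8%.

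The share of PT-like cells with a UMI was also compared at a fixed depth. After thinning each cell to 1000 UMIs, Fos was seen in 5.06% to 23.7% of PT-like cells per mouse (12.5% to 50.3% before thinning), Jun in 23.2% to 59.8% (41.1% to 84.8%) and Atf3 in 0.354% to 6.86% (1.22% to 19.8%). AKI-CKD 2, the highest mouse for Fos in CPM, had 15.2% of thinned cells with a Fos UMI, below the 23.7% of AKI-CKD + EGT 3 and the 16.6% of Control 1. At least 3 of the 10 genes were seen in 20.9%, 11% and 4.28% of thinned cells in Control, 6.19%, 16.2% and 10.3% in AKI-CKD, and 9.11%, 15.8% and 27% in AKI-CKD + EGT. AKI-CKD + EGT 3 stood highest, and none of the 10 was seen in 16.5% of its thinned cells, against 31.4% to 59.5% in the other mice. That share was 53.2% in AKI-CKD 1 and 55.9% in AKI-CKD 3. No cell class here should lack these genes, so the share of cells with a UMI that background RNA alone would give was not tested.

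PT-like cells themselves fell into clusters of very different level. In 4 of the 11 PT-like clusters the summed level of the 10 genes had a median over mice of 2715 to 3906 CPM, and in the other 7 of 458 to 988 CPM. The high clusters had a median of 4225.5 to 5896 UMIs per cell and 5819 to 30835 CPM of the nuclear RNA Malat1, and the low clusters 1708 to 3223 UMIs and 1253 to 2820 CPM. The median mitochondrial share was 1.66% to 3.20% in the high clusters and 2.47% to 5.98% in the low clusters. Depth and Malat1 therefore moved with the level and the mitochondrial share partly against it, and their part in the level was not tested. Within clusters the mice still differed 2.11-fold to 7.44-fold, with Control 3 lowest in 8 of 11, AKI-CKD 3 in 2 and AKI-CKD 1 in 1. AKI-CKD 1 lay below AKI-CKD 3 in the high clusters, as at 2186 against 3876 CPM in the largest. Among the low clusters the order of these mice varied. AKI-CKD 1 and AKI-CKD 3 had 589 and 494 CPM in the largest low cluster, and 308 and 313 CPM in the next. In 6 of 11, all among the low clusters, AKI-CKD + EGT 3 was highest, at 1372 to 2507 CPM, and AKI-CKD 2 was highest in 4.

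Cells with a UMI of the injury markers Havcr1 or Vcam1 were 0.105% to 0.269% of PT-like cells, 14 to 53 per mouse. Jun measured 1290 CPM in them and 1092 CPM in the remaining PT-like cells (means of 9 mice, higher in 7 of 9, two-sided exact permutation of the signs, p = 0.07812, adjusted over the 10 genes 0.32552). Fosb measured 155 and 122.5 CPM, also higher in 7 of 9 (exact p = 0.07422, adjusted 0.32552), and Fos 238 and 221 CPM. Ier2 measured less in the cells with a marker UMI, at 34.3 and 46.5 CPM and higher in 2 of 9 mice (exact p = 0.25391, adjusted 0.63477). Of the 10 genes 0 passed this test after adjustment. The median depth was 2591 to 6056.5 UMIs in the cells with a marker UMI and 2654 to 3202 UMIs in the others, and its part was not tested.

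The 4 further gene lists, chosen with earlier results known, give the surroundings of the 10 genes in PT-like cells. Of 43 other early response genes tested, 0 were called by edgeR in either comparison, against 0.0445% and 0.0% of all genes tested. In AKI-CKD against Control their median log2 fold change was -0.06. An unadjusted p under 0.05 was seen for 4 of them, against 11.4% of all genes. With EGT the median was 0.01, and 5 had such a p, against 15.1%. Plk2, a polo-like kinase, had the largest value in the first, 2.52 ± 0.59, (edgeR adjusted p = 0.24), and DESeq2 called it. Its level was 7.03, 5.14 and 1.38 CPM in the Control mice, and the AKI-CKD mice had 8.15, 38 and 25.8 CPM. Maff, a small Maf factor, was at -1.59 ± 0.76, with 7.55, 1.06 and 0.732 CPM in the Control mice and 0.419, 1.65 and 0.745 CPM in the AKI-CKD mice. Control 1 alone stood above the AKI-CKD range. With EGT, where DESeq2 called Sgk1, the largest were Nr4a3, a nuclear receptor, at 2.43 ± 0.96 and Socs3, a brake on cytokine signalling, at 1.89 ± 0.76. Nr4a3 levels were very low, at 0.039 to 0.11 CPM in AKI-CKD and 0.018, 0.684 and 0.82 CPM in AKI-CKD + EGT, where AKI-CKD + EGT 1 lay below every AKI-CKD mouse. Socs3 measured 0.419, 1.98 and 0.99 CPM in AKI-CKD and 1.22, 4.41 and 9.53 CPM with EGT, and the groups overlapped.

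The summed level of the 14 heat shock genes was 8299, 8688 and 8075 CPM in Control mice, 7439, 8251 and 7698 CPM in AKI-CKD, and 7276, 5832 and 6874 CPM in AKI-CKD + EGT. It was lowest in Control 3 and AKI-CKD 1 of their groups, as for Fos, but by small gaps (8075 against 8299 CPM and 7439 against 7698 CPM). In AKI-CKD + EGT it was highest in mouse 1. Hspa1a, which encodes an inducible HSP70 chaperone, measured 48.4, 111 and 34.4 CPM in Control mice, 142, 101 and 69.7 CPM in AKI-CKD, and 23.1, 17.5 and 87.9 CPM in AKI-CKD + EGT. For Hspa1a AKI-CKD 1, the lowest of its group in the sum, was the highest mouse. With EGT all 14 genes had fold changes below 0, with a median of -0.50 against -0.01 over all genes tested, and 7 had an unadjusted p under 0.05, against 15.1% of genes. EdgeR called 0 of 14, against 0.0% of genes, and DESeq2 called 3 (Dnajb1, Hspa5 and Hspe1) and 450 genes in all. Hspa1a and Hspa1b, near-identical copies whose reads may be split by the counting, were at -1.56 ± 0.57 and -1.66 ± 0.61 (edgeR adjusted p = 0.2581 and 0.2583). In AKI-CKD against Control 0 of 14 were called or had an unadjusted p under 0.05, against 0.0445% and 11.4% of genes. The median was 0.04, and Hspb1 and Hspa1a had the largest values, at 0.75 ± 0.37 and 0.74 ± 0.56.

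Of 26 upstream kinases and transcription factors 0 were called in either comparison, against 0.0445% and 0.0% of all genes tested, with medians of -0.12 and 0.06. The largest values were those of Elk3 (-0.45 ± 0.47), an ETS factor of the serum response, and Mrtfa (-0.42 ± 0.20), a serum response factor coactivator, in the first, and of Elk3 (1.04 ± 0.47) and Mrtfb (0.35 ± 0.12) in the second. Of 14 further leucine zipper partners 0 were called, against the same 0.0445% and 0.0%, with medians of -0.06 and -0.03. Jdp2 was at -1.44 ± 0.77 in the first, and Jdp2 (2.56 ± 0.75), at 0.039 to 0.073 CPM in AKI-CKD, and Batf3 (1.46 ± 0.77) had the largest values in the second.

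The genes whose PT-like level was most like the mean standardised level of the 10 over the 9 mice, out of 17966 compared, were Btg2 (Pearson's r = 0.98), Sertad1 (0.97), Rnd1, Pwwp2b and Ajuba (0.94 to 0.95). These values describe the genes found at the top of such a ranking and carry no test. Btg2, an antiproliferative early response gene, measured 80.3, 29.1 and 13.1 CPM in Control mice, 12.9, 86.9 and 45 CPM in AKI-CKD, and 28.2, 51.8 and 80.2 CPM in AKI-CKD + EGT. Like Atf3, it had its lowest level of each group in Control 3, AKI-CKD 1 and AKI-CKD + EGT 1.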

How the data were processed

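Single-cell RNA libraries of kidneys from 9 mice, 3 per group, had been made with oligo-dT droplets and unique molecular identifiers. What the authors deposited was, mouse by mouse, a table of UMI counts, neither normalised nor pooled, written per the file headers by PISA, and the submitters' processing notes name build GRCm39. The aligner and annotation are not given in the sources used here. As in the study, barcodes under 1000 UMIs, under 500 genes or over 15% mitochondrial UMIs were removed. This left 196925 cells, more than the study states after its own filter, and the cause was not tested. Cells were clustered on 2000 variable genes, without the 10 members, the 4 further lists, mitochondrial and ribosomal protein genes, with 30 principal components, Harmony correction for the mouse, 20 neighbours and Leiden resolution 1.1 (leidenalg 0.10.2, Python 3.11.15). A cluster was named where at least 3 markers were raised 1.5-fold, and 28 of 30 clusters were named. Naming was rebuilt and may differ from the study's. The 6% of cells per library with the highest doublet scores were left out only as an alternative. Barcode names are running numbers, and 0 kept cells had the same counts in another library.

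UMIs were summed per mouse and class and tested with edgeR 4.0.16 (R 4.3.3), with TMM scaling, filterByExpr, 1 quasi-likelihood fit per class over all 9 mice and Benjamini-Hochberg adjustment over the genes tested. DESeq2 1.42.0 was an alternative. Standard errors (SE) are the absolute log2 fold change divided by the square root of the quasi-likelihood F statistic. The edgeR script was tested on simulated data. Levels are CPM on summed UMIs, log2(CPM + 1) in correlations. The form of the test in marker-positive cells, leaving Atf3 out of pooled correlations, the quality relations, the 10 CPM limit for spread, the 30-cell limit for ranks and the description of PT-like clusters were chosen after the data were seen. Replicates are the mice of a group, as the labels number them. The members and gene lists were chosen with earlier results of these data known. The text gives all 10 members in PT-like cells, the 2 with the largest absolute fold change in other classes, and the 2 largest of each further list in PT-like cells, of which 1 is not reported here; Sgk1, Dnajb1, Hspa5 and Hspe1 were singled out after their values were seen. Each group had 3 mice, and members had at least 311 UMIs per mouse in PT-like cells and as few as 22 in macrophage-like cells, where counting error and the spread between mice were not separated. Alternatives were low-count filtering, library size, cell filters, cell naming, doublets, the replicate block and leaving out each mouse.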

Additional observations from a re-analysis of the deposited data

How the results depend on the processing

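The count of 0 members called held in both comparisons and all 6 cell sums under DESeq2, the 6 mice compared alone, library sizes without mitochondrial, ribosomal protein and Malat1 counts, at most 10% mitochondrial UMIs, at least 2000 UMIs per cell, removal of likely doublets and leaving out any one mouse, and in the 5 cell classes with cell types by marker score. The exception was testing genes without the filter on low counts, where 1 member was called in DCT-like cells in AKI-CKD against Control (Ier2, log2 fold change 0.66; 1.1% of all genes), 3 in DCT-like cells with EGT (Atf3, Ier2 and Klf6; 2.25%) and 1 in endothelial-like cells with EGT (Atf3; 0.968%). The cause was not tested. Deviations from group means were correlated over genes between same-numbered mice. The correlations ran from -0.31 to 0.32 in PT-like cells and from -0.45 to 0.37 over all kept cells. Differently numbered mice were not compared, so these values cannot tell whether the replicate numbers pair the mice. With a replicate block 0 members were called, and Fosb in PT-like cells was at -0.0726 in AKI-CKD against Control. The block moved PT-like Atf3 from -0.21 to -0.77 and the PT-like median from 0.21 to 0.12 in the first comparison, and the median from 0.02 to 0.12 with EGT. Of 40 fold changes 12 crossed 0 or moved over 1.5-fold with the block, 10 of 36 by marker score, 7 of 40 at 2000 UMIs, 5 with the mitochondrial limit, 4 without the low-count filter, 2 with the 6 mice alone, 1 without doublets, and 0 with DESeq2 or the other library sizes.

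Other small reversals in PT-like cells were Fosb at -0.0167 (6 mice compared alone), -0.0047 (mitochondrial limit) and -0.0055 (doublets) in the first comparison, and, with EGT, Fosb at -0.0236 and Ier2 at -0.01 (no low-count filter) and Fosb at -0.0542, Atf3 at -0.0487 and Ier2 at -0.0467 (at least 2000 UMIs). Endothelial-like Atf3 was at -0.0078 by marker score. The median correlation of PT-like with endothelial-like levels was 0.52 without the 2 farthest mice, against 0.82. Leaving out one mouse at a time moved log2 fold changes across 0 for 25 of 40 values, with these ranges. In AKI-CKD against Control, PT-like: Atf3 -0.91 to 0.54, Zfp36 -0.29 to 0.28, Junb -0.59 to 1.05, Fos -0.15 to 0.75, Fosb -0.44 to 0.63, Jun -0.0177 to 0.43, Egr1 -0.41 to 0.60, Klf6 -0.18 to 1.03 and Ier2 -0.21 to 0.72. LOH-like: Klf6 -0.20 to 0.58. Macrophage-like: Jun -0.53 to 0.13 and Jund -0.74 to 0.0731. All kept cells: Klf6 -0.15 to 0.84 and Ier2 -0.12 to 0.66. With EGT, PT-like: Fosb -0.36 to 0.44, Junb -0.0137 to 1.14, Egr1 -0.22 to 0.80, Atf3 -0.66 to 0.78, Ier2 -0.28 to 0.64, Zfp36 -0.0191 to 0.45, Fos -0.67 to 0.22, Jun -0.30 to 0.12 and Klf6 -0.86 to 0.0359. All kept cells: Junb -0.11 to 0.88 and Klf6 -0.73 to 0.0611.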
